A study of Mus musculus with 4 samples.

Results

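The planar cell polarity genes are the conserved set that gives the cells of a sheet a common direction within its plane. Here 10 core members were followed, of 18608 genes measured, and every probe that the array design or its accessions assign to them was taken. They were read by 20 of 41174 gene probes, with 1 probe for 4 of the genes (Celsr1, Dvl2, Dvl3 and Fzd6) and 2 to 4 probes for the other 6. RNA came from early headfold mouse embryos (about E7.75) of the NotoGFP strain, on an Sv129/CD-1 hybrid background, in which GFP had been placed into Noto. Noto encodes a transcription factor needed for the node and the notochord. The first group was homozygous (Noto GFP/GFP) and the second heterozygous (Noto GFP/+). Both therefore carried at least 1 GFP allele, and no embryos without it were measured, although the series' design text speaks of wild type. For each genotype, distal pieces holding the node were combined into 1 RNA pool, with pools of 120 to 150 embryos, and the labels are not uniform about the size of the piece. Both pools were hybridised together on 2 Agilent arrays, with the homozygote in Cy5 on array 1 and in Cy3 on array 2.

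In a polarised cell the core proteins sort to opposite sides: Frizzled receptors with Dishevelled adaptors on one side, and Vangl with Prickle on the other, joined between neighbouring cells by Celsr cadherins. In the mouse node, where rotating cilia drive the leftward flow that sets left and right, this system tilts and shifts each cilium to the posterior of its cell. Vangl1 and Prickle2 proteins lie at the anterior side of node cells and Dishevelled at the posterior side. The arrays measured RNA, which says nothing of where the proteins lie. A distal piece also holds many cells outside the node, so in these pools fewer cells expressing a gene and less RNA per cell cannot be told apart.

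None of the 10 genes differed between the genotypes by the size rule used here. A gene was called higher or lower where both arrays, each taken alone, put the homozygote at least 1.5-fold (0.58 in log2) above or below the heterozygote. Of the planar cell polarity genes 0 of 10 were called, and of their probes 0 of 20, against 2.41% of all measured genes and 2.1% of all measured probes. At shares this small, a count of 0 does not set 10 genes or 20 probes apart from the rest. The gene values, as log2 ratio of homozygote over heterozygote from the brightest probe, lay between -0.09 for Fzd6 and 0.17 for Celsr1, which is 0.94-fold to 1.12-fold. Errors are the SD of the 2 arrays, which are repeat hybridisations of 1 pool per genotype. They measure technical spread only, and no p-value is given because no genotype had a second pool. The number of arrays limits the precision.

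The probes are 60-base DNA strands, and some of them are printed here. Of these, only the Dvl3 probe was the brightest of its gene and so gave the gene value. Positions are those in the array files, on mouse build mm8. No annotation of that build was used, so the exon or untranslated region of a probe is not given. Each of the printed probes leaves at least 1 reading frame open over its whole length. The first pair aligns between the related genes Vangl1 (chr3:102287307-102287366, minus strand) and Vangl2 (chr1:173841294-173841353, minus strand). Capitals mark the 18 bases at which the 2 probes differ over the 52 bases they share.
Vangl1 probe A_52_P350687: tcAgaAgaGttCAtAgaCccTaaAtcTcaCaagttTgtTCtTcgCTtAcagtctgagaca
Vangl2 probe A_51_P249777: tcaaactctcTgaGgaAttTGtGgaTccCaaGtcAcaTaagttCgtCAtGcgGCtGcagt
They are 65.4% identical there, and the longest run of identical aligned bases is 5 long. Between probes of any 2 of the 10 genes the longest run in common was 9 bases, so no pair of these genes shared a long probe stretch.

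The Prickle probes below (chr15:93336785-93336844 and chr6:92341450-92341509, both minus strand) matter because other probes of the same genes read differently. A further frame of the Prickle2 probe is open up to its last 3 bases, in capitals, which read as a stop codon.
Prickle1 probe A_52_P503849: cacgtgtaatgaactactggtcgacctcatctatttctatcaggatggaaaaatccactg
Prickle2 probe A_52_P360241: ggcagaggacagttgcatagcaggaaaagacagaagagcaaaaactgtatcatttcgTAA
The next 3 probes occupy more genome than their own length, as a probe does that reads RNA joined across an intron. They span 144 bases of Dvl1 (chr4:154700299-154700442, plus strand), 592 bases of Dvl3 (chr16:20439938-20440529, plus strand) and 22750 bases of Fzd3 (chr14:64166277-64189026, minus strand).
Dvl1 probe A_51_P504503: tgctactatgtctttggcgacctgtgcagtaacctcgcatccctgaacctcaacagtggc
Dvl3 probe A_51_P480209: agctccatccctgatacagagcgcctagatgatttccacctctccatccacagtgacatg
Fzd3 probe A_52_P168231: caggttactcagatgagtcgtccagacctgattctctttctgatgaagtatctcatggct

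All 20 probes were well above background in all 4 samples and 0 were saturated. The genes thus had measurable RNA in the distal pieces of both genotypes. In all, 7 of the genes were brighter than the median measured gene, in a range where calls were rarer: 61 of 9304 brighter genes were called, 0.656%. Log2 levels below are normalised intensities after loess and Aquantile scaling. A level also depends on the probe, so levels are compared between samples and not between probes.

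**Figure D1:**
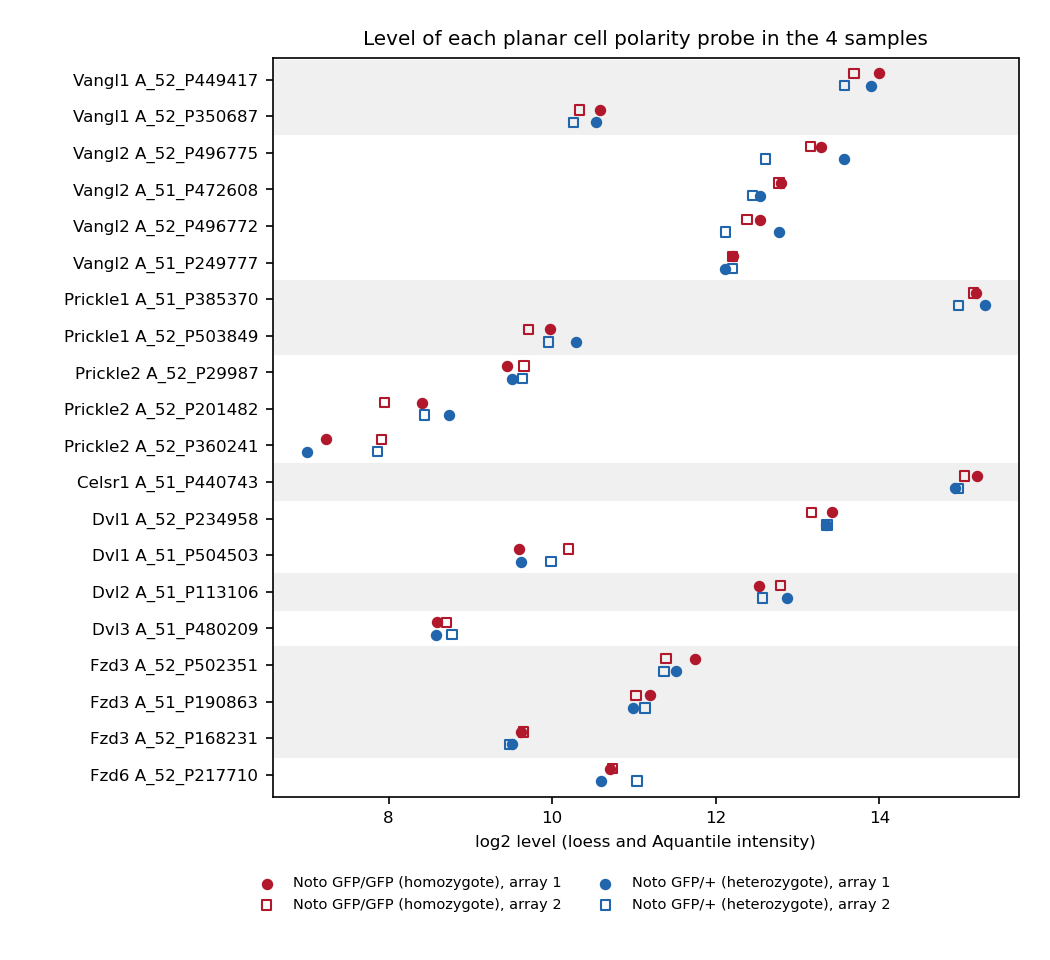
Log2 level (normalised intensity, horizontal axis) of each of the 20 probes in the 4 samples, with Noto GFP/GFP in red above Noto GFP/+ in blue, array 1 as filled circles and array 2 as open squares. The arrays of one genotype often lie as far apart as the genotypes do, and the levels of the genotypes did not overlap for 4 probes.

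Over the 2 arrays the levels of the genotypes did not overlap for 4 of the 20 probes, 3 of them higher and 1 lower in the homozygote, whereas 26.9% of all measured probes were apart in this sense (12.2% higher and 14.7% lower). The 3 higher ones were single probes of Vangl2, Celsr1 and Fzd3, and the lower one was a probe of Prickle2. For the other 16 probes the genotypes overlapped.

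Vangl1 and Vangl2 encode the 4-pass membrane proteins that recruit Prickle. Vangl1, whose protein marks the anterior side of node cells, gave the steadiest ratios of the 10 genes. Its brighter probe (A_52_P449417, chr3:102285858-102285917) had log2 levels of 14.00 and 13.69 in the homozygote, against 13.90 and 13.57 in the heterozygote, on arrays 1 and 2. The homozygote was higher on each array by 0.10 and 0.12 (mean 0.11 ± 0.01, SD, n = 2 arrays), yet the genotypes overlapped across arrays because array 1 was brighter overall for this probe. The other probe (A_52_P350687) had levels of 10.59 and 10.33 in the homozygote, against 10.54 and 10.26 in the heterozygote. It also leaned to the homozygote on each array, by 0.06 ± 0.02. Vangl1 thus had the same direction in both probes and both arrays, at 1.08-fold by the brighter one.

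Vangl2, the gene altered in Loop-tail mice with open neural tubes, had 4 probes that did not behave alike. The brightest (A_52_P496775, chr1:173839400-173839459) had levels of 13.29 and 13.16 in the homozygote, against 13.57 and 12.61 in the heterozygote. Its ratio turned from -0.28 on array 1 to 0.55 on array 2, a mean of 0.13 ± 0.59. On both arrays the sample in Cy3 read higher, whichever genotype it was. The probe starting 116 bases away (A_52_P496772, chr1:173839284-173839343) turned likewise, with ratios of -0.23 and 0.26 and a mean of 0.02 ± 0.35.

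The other 2 Vangl2 probes did not turn between the arrays in this way. A_51_P472608 (chr1:173837926-173837985), which starts 1358 bases from A_52_P496772, had levels of 12.80 and 12.78 in the homozygote, against 12.55 and 12.45 in the heterozygote. Here the homozygote lay above the heterozygote on both arrays without overlap, by 0.29 ± 0.05 (1.22-fold), the highest mean of the 20 probes. A_51_P249777, printed above, had levels of 12.21 and 12.21 in the homozygote, against 12.12 and 12.21 in the heterozygote, and a ratio of 0.05 ± 0.07. The 4 Vangl2 probes thus ranged over 0.27 on the log2 scale, with a mean of 0.12, and all 4 means were above 0.

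Prickle1 and Prickle2 encode cytoplasmic proteins with LIM domains that bind Vangl. Prickle1 had one bright and one dimmer probe, which leaned in different directions. The bright one (A_51_P385370, chr15:93327584-93327643) had levels of 15.19 and 15.15 in the homozygote, against 15.29 and 14.96 in the heterozygote, and a ratio of 0.04 ± 0.20 that changed sign between arrays. The dimmer probe (A_52_P503849) had levels of 9.98 and 9.71 in the homozygote, against 10.29 and 9.95 in the heterozygote. It read lower in the homozygote on each array, by -0.32 and -0.24 (mean -0.28 ± 0.05), although the levels of the genotypes overlapped across arrays. Averaged over both probes Prickle1 had a ratio of -0.12, so its sign depended on the probe.

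Prickle2, whose protein marks the anterior side of node cells with Vangl1, had the widest range between probes of the 10 genes, 0.55 on the log2 scale. Its brightest probe (A_52_P29987, chr6:92336828-92336887) had levels of 9.45 and 9.65 in the homozygote, against 9.51 and 9.63 in the heterozygote, a ratio of -0.02 ± 0.06. A_52_P201482 (chr6:92446124-92446183), designed from a cDNA clone that RefSeq lists as a synonym of Prickle2, had levels of 8.41 and 7.95 in the homozygote, against 8.73 and 8.44 in the heterozygote. It was lower in the homozygote on each array, by -0.33 and -0.49 (mean -0.41 ± 0.12, 0.753-fold), without overlap. This was the lowest mean of the 20 probes and the 1 probe that differed by at least 1.2-fold the same way on each array, a size that 10.8% of all measured probes reached. Prickle2 was the 1 gene of the 10 on chromosome 6, which also carries the targeted Noto. Whether this bears on its values was not tested.

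The clone probe starts 104.7 kb from the probe that ends in TAA (A_52_P360241), and the RefSeq promoter table lists 4 starts for Prickle2. That TAA probe had levels of 7.23 and 7.91 in the homozygote, against 7.0 and 7.86 in the heterozygote, and a ratio of 0.14 ± 0.13, above 0 on each array. Both were dim. On the clone probe the foreground was 5.83 and 3.65 times the background in the homozygote, against 6.90 and 7.19 times in the heterozygote. On the TAA probe it was 2.85 and 3.73 times in the homozygote, against 2.90 and 5.10 times in the heterozygote. Which Prickle2 transcripts each probe reads was not examined.

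Celsr1 encodes a 7-pass cadherin that joins the polarity complexes of neighbouring cells. Its probe (A_51_P440743, chr15:85726717-85726776) had levels of 15.19 and 15.05 in the homozygote, against 14.93 and 14.97 in the heterozygote. The homozygote was higher on each array without overlap, by 0.26 and 0.08 (mean 0.17 ± 0.13, 1.12-fold), the highest gene value of the 10. With 1 probe there was no second reading of Celsr1.

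Fzd3 and Fzd6 encode the Frizzled receptors that act together in closing the neural tube and in orienting the sensory cells of the mouse inner ear. For Fzd3 the brightest probe (A_52_P502351, chr14:64146914-64146973), named in the array file only by an older clone name, had levels of 11.75 and 11.39 in the homozygote, against 11.51 and 11.37 in the heterozygote. Its ratio was 0.13 ± 0.15, above 0 on each array, with overlap across arrays. The probe across an intron (A_52_P168231) had levels of 9.62 and 9.65 in the homozygote, against 9.51 and 9.48 in the heterozygote, a ratio of 0.14 ± 0.04 without overlap. The remaining Fzd3 probe (A_51_P190863, chr14:64156616-64156676) had ratios of 0.21 and -0.11 and a mean of 0.05 ± 0.22. All 3 Fzd3 means were thus above 0 and lay within 0.09 of each other.

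Fzd6 had 1 probe (A_52_P217710, chr15:38867635-38867694), with levels of 10.71 and 10.74 in the homozygote, against 10.59 and 11.04 in the heterozygote. Its ratio was 0.12 on array 1 and -0.30 on array 2, a mean of -0.09 ± 0.29, the lowest gene value of the 10. The sample in Cy5 read higher on both arrays, and the genotypes overlapped.

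Dvl1, Dvl2 and Dvl3 encode the Dishevelled adaptors that bind Frizzled at the membrane and, in the mouse node, gather at the posterior side of the cell. None of them had the same direction on both arrays. Dvl1 had levels of 13.42 and 13.17 in the homozygote, against 13.35 and 13.36 in the heterozygote, on its brighter probe (A_52_P234958, chr4:154702842-154702901), a ratio of -0.06 ± 0.18. Its other probe (A_51_P504503), which crosses an intron, had levels of 9.60 and 10.20 in the homozygote, against 9.61 and 9.98 in the heterozygote, a ratio of 0.10 ± 0.16. Dvl1 thus overlapped between genotypes on both probes and its mean over them was 0.02.

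Dvl2 (A_51_P113106, chr11:69825985-69826044) had levels of 12.53 and 12.80 in the homozygote, against 12.87 and 12.57 in the heterozygote. The ratio was -0.34 on array 1 and 0.22 on array 2 (mean -0.06 ± 0.40), so the sample in Cy3 again read higher on both arrays. Dvl3 (A_51_P480209) had levels of 8.59 and 8.71 in the homozygote, against 8.57 and 8.78 in the heterozygote, a ratio of -0.03 ± 0.06. The Dvl3 levels of the genotypes differed by less on each array than those of one genotype did between arrays.

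**Figure D2:**
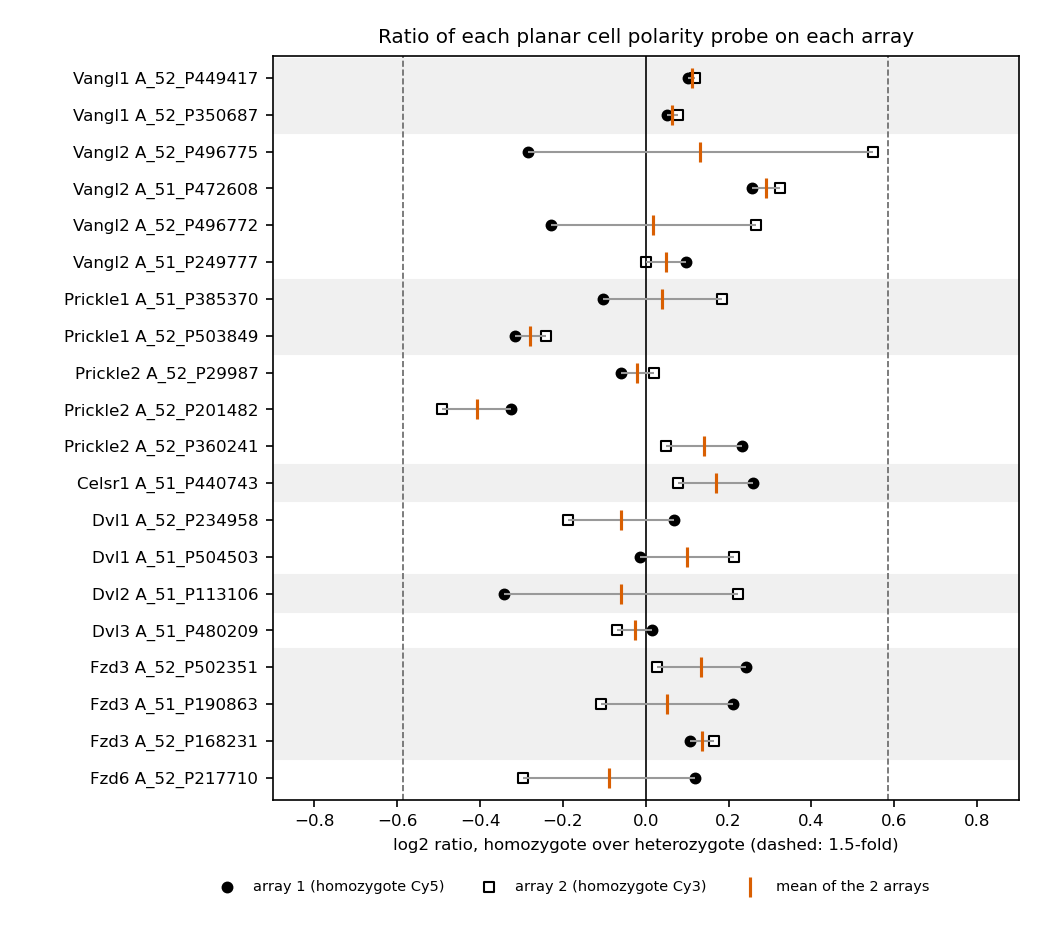
Log2 ratio of homozygote over heterozygote (horizontal axis) for each of the 20 probes on array 1 (filled circles) and array 2 (open squares), with the mean of both as an orange bar and dashed lines at 1.5-fold. No probe passes a dashed line, and the widest gap between arrays is that of Vangl2 A_52_P496775, from -0.28 to 0.55.

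Over the 10 genes, the ratios centred near 0. The median gene value was 0.01, with medians of 0.04 and 0.05 on arrays 1 and 2, beside a median of -0.02 over all measured genes. Vangl1, Celsr1 and Fzd3 were above 0 on both arrays, 0 genes were below 0 on both, and 7 (70%) had opposite signs on the arrays. Over all measured genes 25.7% were above 0 on both arrays, 34% were below and 40.3% had opposite signs. The mean ratio exceeded its SD for 2 of the 10 genes, Vangl1 and Celsr1, against 49.9% of all measured genes. The gap was smaller by probe. There the mean exceeded its SD for 8 of the 20 (40%), against 51.1% of all measured probes and 41.8% of those brighter than the median. By probe, 7 of the 20 were above 0 on both arrays, 2 below and 11 (55%) opposite, whereas over all measured probes 30.4% were above, 30.7% below and 38.9% opposite. Of all probes brighter than the median, as 11 of the 20 were, 48.1% had opposite signs. The highest ratio of any of the 20 probes on a single array, in either direction, was 0.55, so no gene of the 10 would have been called from either array alone. Vangl1, Vangl2, Celsr1 and Fzd3 had a mean above 0 under each of 7 other ways of processing the arrays, although Vangl2 was below 0 on array 1 alone. Ways that changed only the filter on dim probes could not move the values of the 10 genes. The signs of Prickle1, Prickle2, Dvl1, Dvl2, Dvl3 and Fzd6 each changed under at least 1 of them. With median centring in place of loess, which put the median of all genes at 0.12, Dvl1 had 0.16, Dvl2 0.15 and Fzd6 0.06.

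The dye exchange splits a ratio into a genotype part, the mean of the 2 arrays, and a dye part (Cy5 over Cy3), taken from their difference. With 1 array per dye order, the dye part also holds any other difference between the arrays, and these cannot be told apart. The dye part was -0.42 and -0.25 for the neighbouring Vangl2 probes A_52_P496775 and A_52_P496772. It was -0.28 for Dvl2 and 0.21 for Fzd6. In these 4 probes the dye part was larger than the genotype part, which was 0.13, 0.02, -0.06 and -0.09. By its definition the dye part was larger in every probe with opposite signs on the arrays, 11 of the 20. For Vangl1 it was smallest, at -0.01 on both probes, and for the Prickle2 clone probe it was 0.08, beside a genotype part of -0.41. Over all measured genes 14 passed the 1.5-fold rule when array 2 was left unturned so that the ratio followed the dye, 0.0752%, and none of the 10 genes was among them.

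**Figure D3:**
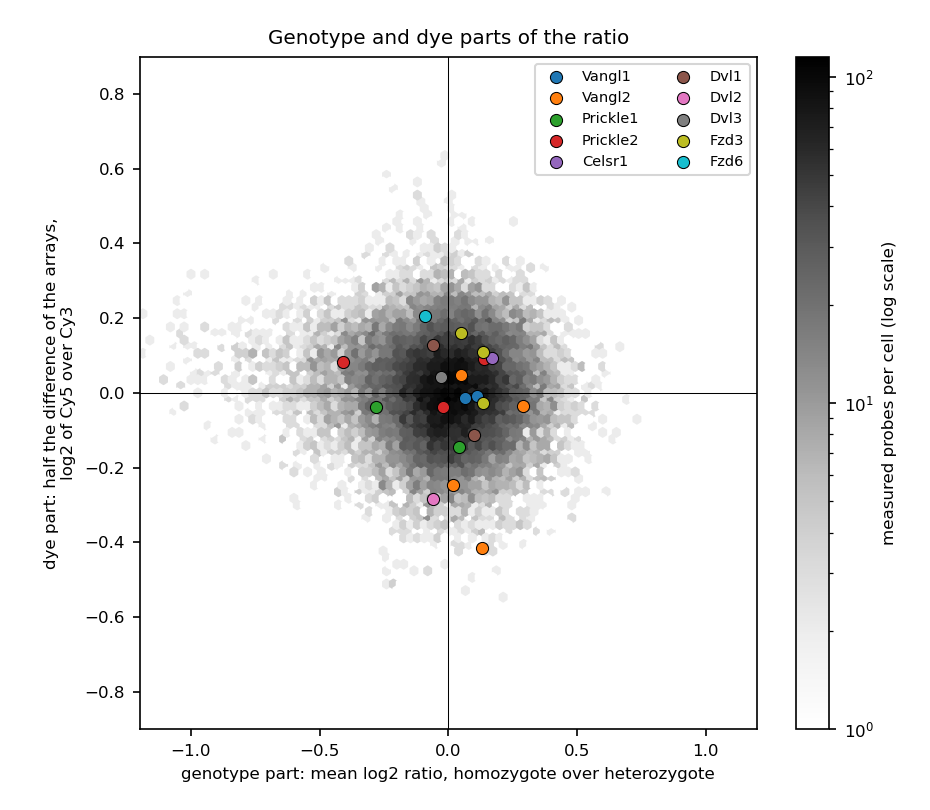
Genotype part (mean log2 ratio of homozygote over heterozygote, horizontal axis) and dye part (log2 of Cy5 over Cy3, vertical axis) of each measured probe, as grey cells on a log scale of probe number, with the 20 planar cell polarity probes as coloured points. Vangl2, Dvl2 and Fzd6 probes lie far from 0 along the dye axis, and the Prickle2 clone probe lies at -0.41 along the genotype axis.

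The other genes of the pathway were followed in 6 lists of 60 genes, of which 57 were measured and 0 were called, against 2.41% of all measured genes. At that share, 0 of 57 does not set these genes apart either. Among the other members of the core families, 12 of 13 were measured, with a median of 0.06. The receptors Fzd8 (0.29 ± 0.27) and Fzd4 (-0.24 ± 0.12) lay farthest from 0. Of 12 Wnt ligands, inhibitors and co-receptors of the polarity branch the median was 0.02. The lowest was Cthrc1, a secreted protein that strengthens the binding of Wnt to its polarity receptors, with ratios of -0.82 and -0.44 (mean -0.63 ± 0.27), which missed the rule on array 2. Ror1, a receptor for Wnt5a, had 0.23 ± 0.01.

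The 6 measured effectors that link polarity to ciliogenesis had a median of -0.005. Cplane1 and Intu, which act together at the base of the cilium, had 0.18 ± 0.08 and 0.09 ± 0.04. The 9 measured adaptor, trafficking and turnover genes had a median of 0.002, with Csnk1e, a kinase of Dishevelled, at -0.32 ± 0.25 and Smurf1, a ubiquitin ligase that acts on Prickle1, at 0.24 ± 0.08. The other Csnk1e probe had 0.14 ± 0.08 and the other Smurf1 probe 0.04 ± 0.08. In the Fat and Dachsous system, a second polarity system of giant cadherins, the receptor Fat4 had 0.35 ± 0.19 and its ligand Dchs1 0.32 ± 0.13, while the median of the 5 genes was -0.05. The other Fat4 probe had 0.33 ± 0.05, but the other Dchs1 probe had 0.02 ± 0.01. The 13 cytoskeletal effectors had a median of -0.01, with the myosin heavy chain Myh9 at 0.43 ± 0.47. The 6 list medians lay between -0.05 and 0.06, beside 0.01 for the 10 core genes.

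By single probes, 2 of the 110 measured probes of these lists passed the 1.5-fold rule, against 2.1% of all measured probes. Both were lower in the homozygote, as were 559 of the 583 called probes in all. Both are named after their values were seen. One probe of Celsr2, a paralogue of Celsr1, had ratios of -0.60 and -0.80 (A_52_P350148, mean -0.70 ± 0.14), while the other Celsr2 probes had -0.09 and 0.09. One Intu probe had -0.83 and -0.73 (A_51_P401176, mean -0.78 ± 0.07), while the other Intu probes had 0.09 and 0.09. In both genes, as in Prickle1 and Prickle2, a probe other than the brightest was lower on both arrays, and the brightest was not. These genes were put together after their values were seen, and 30.7% of all measured probes were below 0 on both arrays. Some dimmer probes of the lists were above 0 on both, as for Ror1 (0.43 and 0.69) and Mapk9 (0.42 and 0.51).

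**Figure D4:**
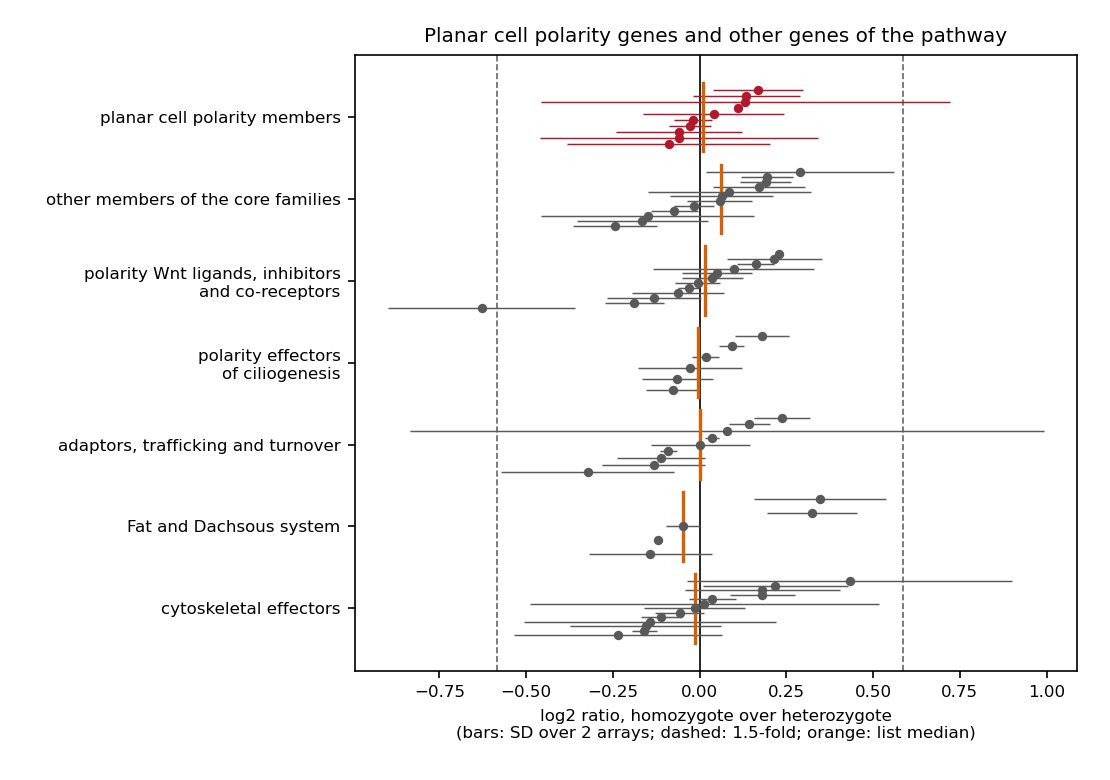
Log2 ratio of homozygote over heterozygote (horizontal axis, mean of the 2 arrays with the SD as a bar) for the 10 planar cell polarity genes in red and for the measured genes of 6 lists of related genes in grey, with the list median in orange and 1.5-fold as dashed lines. The list medians lie between -0.05 and 0.06, and Cthrc1 alone has a mean past a dashed line.

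The tissue was checked on marker genes. All 7 node and notochord markers were measured and well above background in all 4 samples. Their median ratio was -0.03, with 2 above 0 on both arrays, 3 below and 2 opposite. Foxj1, the regulator of motile cilia, had log2 levels of 13.30 and 13.45 in the homozygote, against 13.89 and 13.91 in the heterozygote (ratio -0.52 ± 0.09, not called because array 2 missed the threshold). Named after their values were seen, Shh had -0.44 ± 0.07 and T, the highest of the 7, had 0.33 ± 0.02. Markers of neural ectoderm, paraxial mesoderm, definitive and visceral endoderm, trophoblast and blood were also measured, 3 of 3 in each list, and 1 of them, Meox1, was called, lower at -0.62 ± 0.04. All 3 neural ectoderm markers were below 0 on both arrays, with a median of -0.18. Of the trophoblast markers 2 were above 0 on both arrays and 1 below, with means from -0.53 to 0.36. In the other lists the signs were mixed. The blood marker Hbb-bh1, at log2 levels of 7.03 to 7.62, was well above background in fewer than all 4 samples. The parts of these tissues in the values of the planar cell polarity genes were not tested. Noto was not analysed here, and the genotype labels were therefore not checked on the targeted gene.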

How the data were processed

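The 10 genes and the gene lists were chosen with earlier results of these data known. Per the file headers, the arrays were read with Agilent Feature Extraction 9.5.3.1 (also in the submitters' processing notes), which wrote foreground and background intensity per spot, processed intensities, the log10 of red divided by green, and flags for each spot. The authors also deposited a value table of processed intensity, which was 1.07 (array 1) or 1.28 (array 2) times the processed signal of the dye that each label names, with a floor of 15. Its column medians were 109.6 and 95.1 for the homozygote and 110.6 and 96.2 for the heterozygote, its scale is linear, and the origin of the factors stays unknown. Both sample files of an array held identical data, so each array was read once.

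Each array held 43379 gene spots. In the homozygote 81.5% and 64.0% of them were well above background on arrays 1 and 2, and in the heterozygote 77.7% and 68.1%. The software's spike-in slopes of 0.809 and 0.705 show compressed ratios. From mean foreground and median background, limma 3.58.1 in R 4.3.3 applied normexp (offset 50) and loess within each array, with controls at weight 0 and outlier spots left out. Array 2 was turned to homozygote over heterozygote, spots of a probe were averaged, and measured probes were those that both arrays flagged well above background for either genotype or both. A gene took its brightest measured probe. Names came from the files and a RefSeq table (GRCm38.p6, names only), which matched 33115 of 41174 probes. Sequences are those of the array files. From the lists, called genes were to be named, or the 2 farthest from 0 where fewer than 2 were called. One value that this rule would give is not reported here. With 1 pool per genotype no test was run. The steps were tested on simulated data. Only brighter probes were changed there, and by more than the threshold, so the simulation does not bear on dim probes or smaller differences. Alternatives were other background, centring, probe and filter rules, the software's ratio, the value table and each array alone. Summaries and plots were made in Python 3.11.15 (pandas 2.3.3, numpy 2.4.6, matplotlib 3.10.9).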

Additional observations from a re-analysis of the deposited data

How the results depend on the processing

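Under all 7 other settings and on either array alone, 0 of the 10 genes passed the 1.5-fold rule. Nor did any of their 20 probes, on either array alone and under the 6 settings that give values per probe (all but the mean of probes). The median of the 10 genes, 0.010 as reported, was 0.036 with the software's log ratio, 0.024 with the value table, 0.213 when arrays were median-centred without loess, and -0.003 with the mean of probes, and 0.042 to 0.051 on single arrays. Median centring also moved the median of all genes to 0.121. The 10 genes then lay 0.092 above all genes, against 0.028 as reported. The count of all genes called, 448 as reported, was 814 with the software's log ratio, 746 with the value table and 769 to 1058 on single arrays. The number called was 0 to 1 on single arrays in the Wnt, the adaptor and the cytoskeletal list, with the 1 on array 1 each time (Cthrc1 at -0.82, Csnk1d at 0.72 and Myh9 at 0.76, with -0.44, -0.57 and 0.10 on array 2). Of 70 single-gene values under these settings 12 moved by more than their SD and 58 did not. The settings that changed only the filter on dim probes could not move these values, because all 20 probes were well above background in all 4 samples. The cause of these shifts was not tested. No paired analysis was possible because every ratio is already taken within an array, which the shared replicate number marks, so there was no unpaired fit to set beside it.

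The SD of 2 arrays of the same pools leaves out variation between embryos and litters. Measured differences under 1.5-fold, which is where all 20 probes lay, were not called in either direction. Ratios were also compressed, with spike-in slopes of 0.809 and 0.705 on arrays 1 and 2. At such slopes a true difference of 1.5-fold reads as less than 1.5-fold. True differences somewhat above 1.5-fold were therefore not excluded for these 20 probes. The dimmest of them, a Prickle2 probe, was 2.85 to 5.10 times its background.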
